A study of Rattus norvegicus with 7 samples.

Results

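The hippocampal transcriptome of male Sprague Dawley rats fed docosahexaenoic acid (DHA), a polyunsaturated omega-3 lipid, was described from 4 RNA-seq libraries. The rats were 2 months old when the diet began and received it for 6 weeks. The study also had rats on regular chow, whose libraries were not analysed here, so that no effect of the diet was estimated. The series as given holds 7 samples, of which these 4 are the hippocampus libraries. The labels call them replicates of 1 group and do not state that each came from a separate rat, so the spread between them may be in part technical. The dissected tissue was frozen, and its poly-A RNA was selected and copied with random primers.

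Levels are FPKM, sequenced fragments scaled to transcript length and to library size, which allows genes to be compared per length. A locus of the deposited table was kept when its status was OK in all 4 libraries, and a symbol with several loci was represented by the locus with the highest mean FPKM. This left 16153 of 16223 symbols, called genes here, from 18087 loci. Of these genes, 14425 have a single locus and 1728 have several. With 1 group there is no contrast to test, so levels are given with the SD over the 4 libraries, and each gene also by its abundance percentile, its place among the 16153 genes ordered by mean FPKM.

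The hippocampus is a folded sheet of cortex in which granule cells of the dentate gyrus project to pyramidal cells of CA3, and these to pyramidal cells of CA1. These principal neurons release glutamate, and a smaller and diverse population of GABAergic interneurons controls their firing. Astrocytes, myelinating oligodendrocytes, microglia and vessels fill the rest of the tissue, and the choroid plexus and the meninges lie against it.

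The dissection was first checked against 4 genes of hippocampal principal neurons. Slc17a7, the vesicular glutamate transporter of cortical and hippocampal neurons, read 847, 694, 574 and 571 FPKM in replicates 1 to 4. Neurod6, a transcription factor gene of forebrain excitatory neurons, read 67.5, 73.3, 59.0 and 77.0 FPKM. Wfs1, an endoplasmic reticulum protein gene that marks CA1 pyramidal cells, read 169, 111, 163 and 125 FPKM. Itpka, a kinase gene of dendritic spines, read 239, 207, 203 and 154 FPKM. All 4 genes were high in every library, at abundance ranks between 49 for Slc17a7 and 987 for Neurod6, and the labelled tissue was not contradicted. Slc17a7 and Neurod6 have a second locus each, which read at most 1.06 FPKM for Slc17a7 and up to 19.3 FPKM for Neurod6, in replicate 4.

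The promoters of 3 of these genes are shown because promoter composition followed abundance in these libraries, as described further on. They are the 250 bases before the RefSeq gene start in the rat assembly GRCr8, 5′ to 3′ on the strand of the gene. Capitals mark matches on either strand to the GC box GGGCGG, to the TATA box TATAAA and to the cyclic AMP response element TGACGTCA, with overlapping matches joined.
Slc17a7 promoter, chr1:104785955-104786204, plus strand: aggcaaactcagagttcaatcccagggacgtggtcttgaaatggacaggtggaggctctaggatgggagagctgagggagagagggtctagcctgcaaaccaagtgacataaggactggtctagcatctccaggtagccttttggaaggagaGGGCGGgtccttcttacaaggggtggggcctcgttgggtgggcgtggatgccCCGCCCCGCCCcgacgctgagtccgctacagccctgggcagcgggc
Neurod6 promoter, chr4:86180156-86180405, minus strand: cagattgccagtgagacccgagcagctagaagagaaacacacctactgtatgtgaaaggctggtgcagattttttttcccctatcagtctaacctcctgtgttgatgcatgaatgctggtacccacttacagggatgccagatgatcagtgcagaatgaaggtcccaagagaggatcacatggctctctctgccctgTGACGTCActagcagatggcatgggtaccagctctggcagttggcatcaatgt
Wfs1 promoter, chr14:78034955-78035204, plus strand: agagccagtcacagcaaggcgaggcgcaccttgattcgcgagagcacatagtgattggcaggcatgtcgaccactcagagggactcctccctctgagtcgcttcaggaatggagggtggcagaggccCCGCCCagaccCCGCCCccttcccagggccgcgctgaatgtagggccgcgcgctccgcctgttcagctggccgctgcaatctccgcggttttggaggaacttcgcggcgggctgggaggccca
The Slc17a7 window holds 3 GC boxes and the Wfs1 window 2, while the Neurod6 window holds none and has 1 cyclic AMP response element. None of the 3 has a TATA box, and their GC content is 61.2%, 50% and 66.0%. A match to a motif is a description of the letters and not evidence of a factor bound there.

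A broad set of genes was transcribed in the tissue, and no small group held most of the signal. A mean of at least 1 FPKM was reached by 10309 genes, 63.8% of all, and 9701 genes reached it in each library. By library, 10170, 10094, 10406 and 10149 genes did so, a mean of 10204.75 ± 138 (SD, n = 4). At the other end, 2820 genes were listed at 0 in all 4 libraries. The 30 genes of at least 1000 FPKM held 13.1% of the summed FPKM, 599 genes from 100 to 1000 FPKM held 37.6%, and 5122 genes from 10 to 100 FPKM held 43.2%. The 10 highest genes together took 6.21 ± 0.460% and the 100 highest 24.4 ± 0.506% (SD, n = 4), and 607 genes were enough to reach 50%. Genes of 1 to 10 FPKM were numerous, 4558 in all, but held 5.96%.

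**Figure D1:**
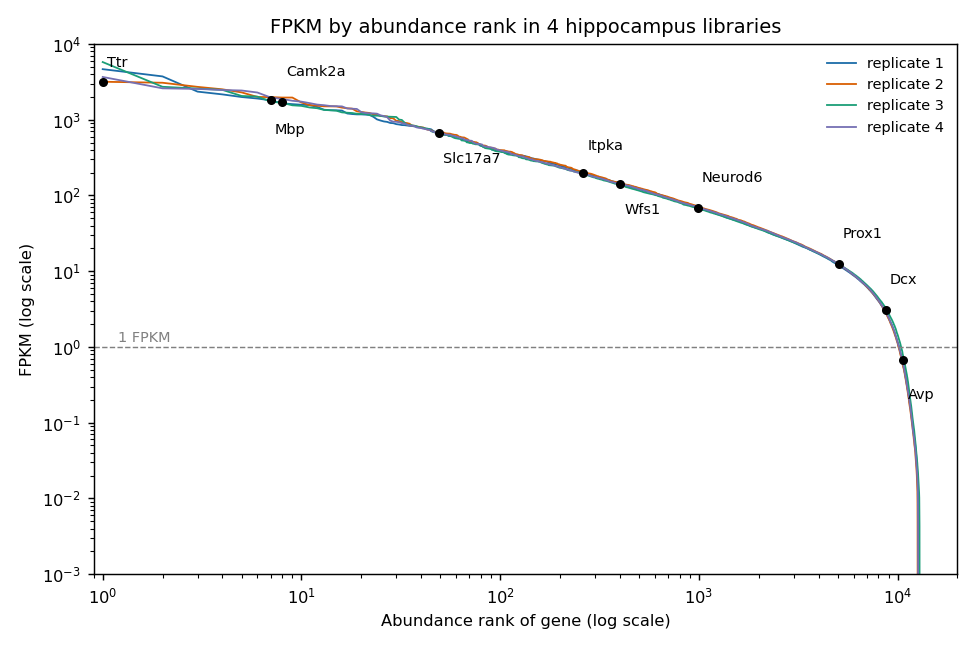
FPKM (log axis) of the genes of each library, ordered within the library from highest to lowest (rank on a log axis), with 1 line per library. Black points are named genes at their mean FPKM and rank over the 4 libraries, and the dashed line is 1 FPKM. The 4 curves run together below the highest ranks, and the 4 principal neuron genes lie between Slc17a7 at rank 49 and Neurod6 at rank 987.

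Sequencing depth is unknown, because FPKM carries no counts. Summed FPKM over genes ran from 352125 to 366602. Across 10309 genes, Pearson r of log2(FPKM + 1) between libraries was 0.907 to 0.939 for pairs with replicate 1 and 0.962 to 0.975 for the others. Among the 1269 of these genes with several loci, pairs with replicate 1 gave 0.751 to 0.800, and the other pairs 0.962 to 0.971. Among the 9040 with a single locus, replicate 1 gave 0.963 and 0.967 with replicates 2 and 3, within the range of the other pairs, and 0.940 with replicate 4. Genes are not independent replicates, so no p is attached. For genes with several loci, the level at the other locus is therefore given beside the main one where it was not small. The median SD of log2(FPKM + 1) over the 4 libraries was 0.23. Without replicates 1, 2, 3 and 4 in turn it was 0.19, 0.25, 0.24 and 0.18, lowest without replicate 4.

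Among the 25 most abundant genes, neuronal excitability, energy supply and myelin were all represented. Atp1b1, the beta subunit of the sodium pump, read 1209, 1503, 1315 and 1499 FPKM. Camk2a, the alpha subunit of the calcium and calmodulin dependent kinase of excitatory synapses, read 1559, 1987, 1550 and 1732 FPKM. Both stayed within a narrow range over the libraries. Calm3, which encodes calmodulin, the calcium sensor that activates this kinase, had a mean of 1204 ± 100 FPKM (SD, n = 4). Chn1, which encodes a Rac GTPase activating protein of neurons, read 806, 1961, 1091 and 1202 FPKM, and its other locus added 438 to 686 FPKM in each library. Rtn1, a reticulon gene of the neuronal endoplasmic reticulum, was steadier, at 1302 ± 94.2 FPKM.

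Secretory and proteostasis genes stood beside them. Cpe, which encodes the carboxypeptidase that trims neuropeptide precursors, read 1158, 1444, 1333 and 2287 FPKM, highest in replicate 4. Ubb, a polyubiquitin gene, had a mean of 3014 ± 567 FPKM and was the second most abundant gene. Atp6v0c, which encodes the ring-forming subunit of the vesicular proton pump, read 1472, 1179, 1150 and 1226 FPKM. Its other locus was listed at 0 in replicate 1 and held 143 to 615 FPKM otherwise. Fkbp1a, which encodes an immunophilin, read 392, 1530, 1087 and 1656 FPKM, with 422 to 536 FPKM at its other locus. Ywhae, a 14-3-3 adaptor gene, had a mean of 1153 ± 112 FPKM. Zwint, known as a kinetochore protein gene and abundant in neurons, read 2160, 2715, 2478 and 2551 FPKM, at abundance rank 4.

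Energy metabolism, cytoskeleton and glia completed the top of the order. Mdh1, cytosolic malate dehydrogenase of the malate-aspartate shuttle, read 1332, 3077, 2580 and 3669 FPKM, lowest in replicate 1. Ckb, the brain creatine kinase, went the other way, with 1803 FPKM in replicate 1 against 792 to 1238 FPKM elsewhere. Tmsb4x, an actin-sequestering thymosin gene, had a mean of 2381 ± 239 FPKM. Actb, which encodes beta-actin, had 1527 ± 64.2 FPKM. Mbp, a main structural protein gene of central myelin, had a mean of 1846 ± 104 FPKM and varied little between libraries. Sparcl1, a matricellular protein gene of astrocytes, had 1237 ± 194 FPKM. Mt3, a brain metallothionein gene that binds zinc, read 1605, 1501, 1523 and 1509 FPKM, and its SD of 48.1 FPKM was the smallest among the 25.

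Scd, stearoyl-CoA desaturase, was the one fatty acid enzyme among the 25, at 1188, 1290, 1131 and 1387 FPKM. At its other locus the libraries read 3.64, 20.2, 4.80 and 901 FPKM, so that with loci summed replicate 4 stood at 2288 FPKM and the others at 1135 to 1310 FPKM. Replicate 4 was highest either way, and the size of its gap depends on how the loci are combined. Ugt2b1, a UDP-glucuronosyltransferase gene known from liver, read 793, 1999, 1671 and 1409 FPKM. The 4 other genes of its family in the table were each below 1 FPKM, and 3 of them were listed at 0. Members of this family are near-identical in sequence and the level of Ugt2b1 is uncertain.

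A few of the 25 were far lower in 1 library than in the others. Ttr, which encodes transthyretin, the thyroxine carrier made by the choroid plexus, read 4651, 31.9, 5771 and 1967 FPKM. It had the highest mean of all genes and yet lay far below that mean in replicate 2. Cplx1, a complexin gene of the release machinery, read 10.4, 1687, 1419 and 1555 FPKM, and its other locus read 206 to 250 FPKM in every library. Rtn3, another reticulon gene, read 157, 1558, 1099 and 2468 FPKM, with 332 to 612 FPKM at its other locus. Both were low in replicate 1 at the locus that represents them.

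Genes were then grouped into 36 lists by cell type, function or other tissue. In all genes, 63.8% reached 1 FPKM and 10% are by construction in the top 10%, which is the background for the counts that follow. Lists and their members were chosen with earlier results of these data known, so counts against this background are descriptive. In bulk tissue, fewer cells of a type and less RNA per cell cannot be told apart. All 18 listed genes of pyramidal and granule cells reached 1 FPKM, and 13 were in the top 10%, with a median percentile of 97.9. Camk2n1, an inhibitor of the kinase encoded by Camk2a, had a mean of 859 ± 194 FPKM.

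**Figure D2:**
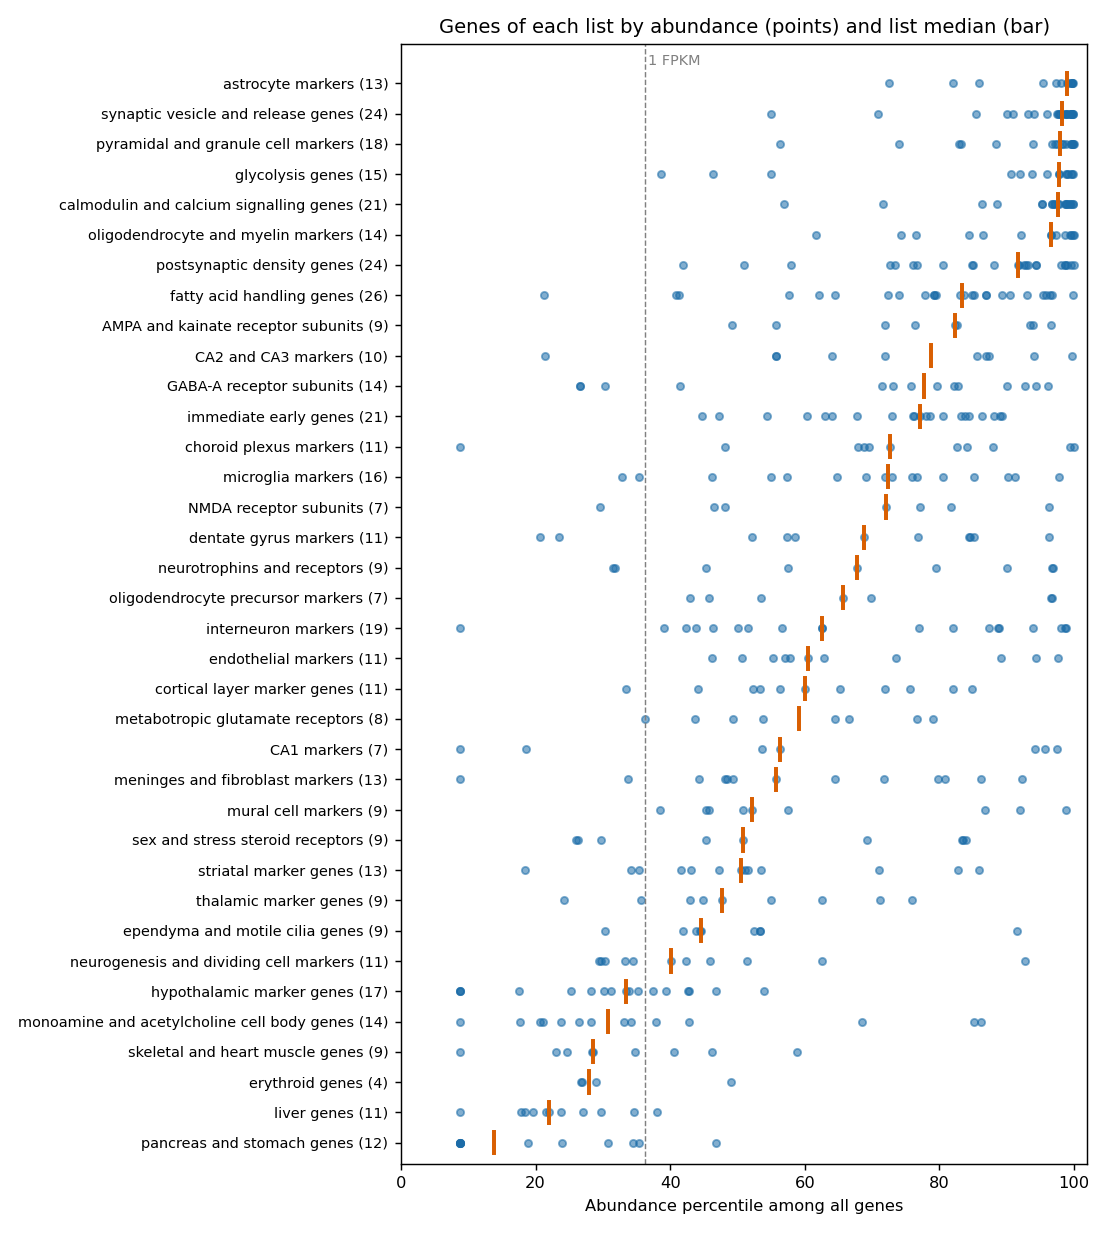
Abundance percentile of each gene (points) among 16153 genes, by gene list, with the number of genes in parentheses and the list median as a bar. The dashed line is the percentile at 1 FPKM. Medians run from 98.9 for astrocyte markers down to 13.8 for pancreas and stomach genes.

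Markers of single subfields were more mixed than those of principal neurons as a whole. Of 7 CA1 genes, 5 reached 1 FPKM, with a median percentile of 56.4. Mpped1 read 96.0, 85.9, 88.3 and 100 FPKM, and Nov, which encodes a secreted matricellular protein, had a mean of 72.1 ± 10.2 FPKM. Fibcd1 was listed at 0 at both of its loci in all libraries. Of 10 CA2 and CA3 genes, 9 reached 1 FPKM, with a median percentile of 78.7. Dkk3, a secreted Dickkopf-family gene, read 71.5, 66.8, 63.2 and 80.5 FPKM. Nnat, an imprinted gene for a small membrane protein, read 125, 967, 1103 and 942 FPKM, while its other locus was highest in replicate 1, at 768 FPKM against 219 to 375 FPKM. With loci summed, replicate 1 stood at 893 FPKM against 1161 to 1477 FPKM.

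In the dentate gyrus list, 9 of 11 genes reached 1 FPKM, with a median percentile of 68.8. C1ql3 and C1ql2, which encode secreted C1q-like synapse organizers of granule cells, had means of 103 ± 46.3 and 30.6 ± 11.8 FPKM. C1ql3 was highest in replicate 4 and C1ql2 in replicate 1. Calb1, the calcium buffer calbindin, read 28.7, 28.8, 28.9 and 31.5 FPKM, with 0.820, 26.1, 18.3 and 49.0 FPKM at its other locus. Prox1, the transcription factor that fixes granule cell identity, was lower, at 12.6 ± 4.08 FPKM, with up to 4.28 FPKM at its other locus. Lct and Tdo2, both used as granule cell markers, did not exceed 0.129 FPKM in any library.

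Interneuron genes covered a wide range of levels. Of 19 genes, 18 reached 1 FPKM and 4 were in the top 10%, with a median percentile of 62.6. Sst, which encodes somatostatin, read 231, 281, 207 and 170 FPKM. Cck, a peptide gene shared by basket cells and some pyramidal cells, was highest in replicate 1, at 457 FPKM against 186 to 204 FPKM. Gad1, which makes GABA, read 58.9 to 75.2 FPKM, and Pvalb, the calcium buffer of fast-spiking cells, 27.4 to 57.3 FPKM. Npy, a peptide gene of hippocampal interneurons, was listed at 0 at both loci in all 4 libraries. A listing at 0 may be a failed estimate, since 6 of 79 cytosolic ribosomal protein genes, which all cells use, were listed at 0 as well.

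Astrocytes gave the highest median percentile of the 36 lists, 98.9, with 10 of 13 genes in the top 10%. S100b, a calcium-binding protein gene of astrocytes, read 1165, 1115, 1094 and 736 FPKM. Glul, glutamine synthetase, which recycles synaptic glutamate, read 826, 805, 777 and 777 FPKM. Apoe, the lipid carrier apolipoprotein E, had a mean of 777 ± 268 FPKM and was lowest in replicate 4, at 447 FPKM. Glul was nearly constant, while S100b and Apoe were both lowest in replicate 4. Slc1a2, the glutamate transporter that clears most synaptic glutamate, had 672 ± 149 FPKM. With Slc17a7, at 671 ± 131 FPKM, it had the highest mean of 321 solute carrier genes, and the order of these genes is not resolved. All 14 oligodendrocyte and myelin genes reached 1 FPKM, with a median percentile of 96.6, and Mobp, another myelin protein gene, had 451 ± 42.2 FPKM. Genes of oligodendrocyte precursors were lower, with a median percentile of 65.7. Cspg5 and Bcas1 led them at 118 ± 12.3 and 111 ± 16.5 FPKM, while Pdgfra, the growth factor receptor that defines these cells, had 13.2 ± 1.87 FPKM. Its other locus was listed at 0 in replicate 1 and read 10.9, 13.3 and 12 FPKM in replicates 2 to 4, so that with loci summed replicate 1 was lowest, at 12.8 against 22.8 to 29.3 FPKM.

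Microglia and vessels were present at lower levels. Of 16 microglia genes, 14 reached 1 FPKM, with a median percentile of 72.4. Ctss, a lysosomal cathepsin gene, read 148, 167, 178 and 144 FPKM. C1qa, a chain of complement C1q, had a mean of 51.7 ± 8.97 FPKM. All 11 endothelial genes reached 1 FPKM, at a median percentile of 60.5. Slc2a1, the glucose transporter of the blood-brain barrier, had 144 ± 16.0 FPKM, Cldn5, the tight junction claudin, 73.2 ± 23.6 FPKM, and Esam 42.4 ± 4.94 FPKM. Erythroid genes were low, with 1 of 4 at 1 FPKM: Alas2, the heme synthesis enzyme, had a mean of 3.93 ± 1.79 FPKM. Globin genes are not analysed here.

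Ependyma was represented by Foxj1, the master regulator of motile cilia, at 54.9, 55.1, 53.2 and 47.4 FPKM. The other 8 listed cilia genes had means of 0.328 to 5.32 FPKM. Among 11 genes of neurogenesis and dividing cells, 6 reached 1 FPKM, and the median percentile was 40.1. Sox2, shared by stem cells and astrocytes, read 49.9, 58.1, 53.2 and 80.6 FPKM. Dcx, a microtubule protein gene of immature neurons, read 2.04 to 4.05 FPKM, and the cell cycle genes Mki67 and Top2a had means of 0.601 and 0.274 FPKM. The list therefore owed its high end to a gene that is not specific to new neurons.

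Presynaptic genes were mostly abundant. All 24 genes of the vesicle and its release machinery reached 1 FPKM, 21 were in the top 10%, and the median percentile was 98.2. Vamp2, the vesicle SNARE synaptobrevin, read 605, 1051, 1198 and 1516 FPKM, with 216 to 356 FPKM at its other locus. Snap25, its partner SNARE on the plasma membrane, read 568, 687, 558 and 889 FPKM. Both were highest in replicate 4. All 24 postsynaptic density genes reached 1 FPKM as well and 13 were in the top 10%. Nrgn, the calmodulin-binding neurogranin of dendritic spines, read 763 FPKM in replicate 1 against 317 to 352 FPKM elsewhere. Ddn, a gene whose mRNA is transported to dendrites, likewise read 376 FPKM there against 237 to 259 FPKM. Of 21 calmodulin and calcium signalling genes, 17 were in the top 10%, and Hpca, which encodes the hippocampal calcium sensor hippocalcin, had a mean of 532 ± 155 FPKM.

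Receptors sat well below the machinery they serve. The median percentiles of AMPA and kainate, NMDA, metabotropic glutamate and GABA-A receptor genes were 82.4, 72.1, 59.2 and 77.7. Among AMPA and kainate receptors, Gria1 had a mean of 110 ± 11 FPKM, Grik5 69.1 ± 21.9 FPKM and Gria3 66.4 ± 21.8 FPKM. The other locus of Gria1 was listed at 0 in replicate 1 and held 57.6 to 101 FPKM otherwise. Grin1, the obligatory NMDA receptor subunit, read 136, 97.0, 104 and 79.0 FPKM. Its partners Grin2b and Grin2a, which set channel kinetics, had means of 24.9 ± 5.30 and 19.3 ± 2.99 FPKM. Grin2a has further loci, and with loci summed it stood at 24.5 to 47.2 FPKM. Thus the order of the 2 partners depends on whether loci are summed.

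Metabotropic receptors were the lowest of the 4 groups, led by Grm5, a postsynaptic receptor, at 21.4 ± 6.53 FPKM and Grm3, which astrocytes also express, at 18.9 ± 4.02 FPKM. None of the 8 was in the top 10%. Among GABA-A receptors, Gabra5, the extrasynaptic alpha subunit typical of hippocampus, read 59.8, 73.2, 59.2 and 104 FPKM, and Gabra2 had a mean of 60.7 ± 15.3 FPKM. In the neurotrophin list, Sort1 and Ntrk2, a sorting receptor and the BDNF receptor, had 121 ± 6.43 and 115 ± 13.5 FPKM, well above the ligand gene Bdnf at 11.9 ± 1.79 FPKM. Among steroid receptors and their partners, Nr3c2, the mineralocorticoid receptor typical of hippocampal neurons, had 28.5 ± 3.12 FPKM, with 5.21 to 9.79 FPKM at its other locus. Hsd11b1, which regenerates corticosterone, had 27.5 ± 1.78 FPKM, and Fkbp5, a glucocorticoid-induced co-chaperone gene, 27.6 ± 2.73 FPKM.

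Mitochondrial respiration took a larger share of FPKM than any other of the 28 gene families examined. The 67 subunits of oxidative phosphorylation all reached 1 FPKM, 52 were in the top 10%, and together they took 3.10 ± 0.295% of summed FPKM (SD, n = 4). By library the share was 3.54%, 2.99%, 2.96% and 2.91%, highest in replicate 1. Cox4i1, a subunit of cytochrome c oxidase, read 1176, 790, 789 and 609 FPKM, and Atp5l, a subunit of ATP synthase, had a mean of 702 ± 181 FPKM. The proton pump of vesicles and lysosomes took 1.46 ± 0.0456%, led after Atp6v0c by Atp6v1b2 at 662 ± 83.1 FPKM and Atp6v0d1 at 605 ± 99.8 FPKM. The share of the pump was lower with single-locus symbols only, as given at the end. The 6 genes for 14-3-3 adaptor proteins took 1.03 ± 0.0548%, with Ywhaz at 909 ± 65.3 FPKM, and 0.575% with single-locus symbols only. Proteasome subunits took 0.685 ± 0.0284%, and of 38 genes 27 were in the top 10%.

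Glycolysis genes were high too, with 12 of 15 in the top 10% and a median percentile of 97.8. Aldoa, fructose-bisphosphate aldolase, read 1335, 1106, 1249 and 671 FPKM. Ldhb, the lactate dehydrogenase chain typical of oxidative tissue, had 599 ± 136 FPKM, and Pfkm, a phosphofructokinase gene, 539 ± 142 FPKM. In contrast, Gapdh read 8.73, 4.03, 4.46 and 6.26 FPKM, Tpi1 had a mean of 1.40 FPKM and Eno2, the neuronal enolase, 3.17 FPKM, with 1.91 to 3.19 FPKM at its other locus. These 3 levels lie far below those of the other enzymes of the same pathway. Cytosolic ribosomal proteins were likewise uneven: 65 of 79 genes reached 1 FPKM and 23 were in the top 10%, with a share of 1.36 ± 0.271%. Rpl41 led them at 1648, 884, 993 and 709 FPKM. Genes such as Gapdh and the ribosomal protein genes have near-identical copies elsewhere in the genome, and how reads were shared among copies is not given in the sources used here, so these levels are uncertain.

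Genes that handle fatty acids were mostly of intermediate abundance, with 25 of 26 at 1 FPKM, 7 in the top 10% and a median percentile of 83.3. After Scd, the highest were Acsl3, a long-chain acyl-CoA synthetase gene, at 104, 124, 105 and 136 FPKM, and Fabp5, which encodes a cytosolic carrier of long-chain fatty acids including DHA, at 135, 112, 107 and 79.6 FPKM. Acsl3 was highest in replicate 4, where Fabp5 was lowest. Elovl5, Elovl4 and Elovl2, the elongases of polyunsaturated and very long chain fatty acids, stood in that order, at 48.5 ± 10.9, 21.5 ± 3.66 and 15.1 ± 2.15 FPKM. Their ranges over the 4 libraries did not overlap between Elovl5 and Elovl4, and overlapped between Elovl4 and Elovl2. Elovl6, which extends saturated chains, was at 0.0328 FPKM or less at both of its loci. Fads1 was not analysed here.

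Hypothalamic, liver, pancreas and muscle genes were mostly low. Of 17 hypothalamic marker genes, 6 reached 1 FPKM, none was in the top 10%, and Kiss1, Otp and Oxt were listed at 0. The highest, Cartpt, a peptide precursor gene, read 1.90, 7.47, 4.0 and 8.67 FPKM. Of 11 liver genes 1 reached 1 FPKM, namely Alb, which encodes albumin, at 1.31 ± 0.728 FPKM, and of 12 pancreas and stomach genes 1 did so as well. Of 9 skeletal and heart muscle genes 3 did, led by Acta1, skeletal muscle actin, at 7.37 ± 1.36 FPKM, with 1.55 to 2.96 FPKM at its other locus. Markers of neighbouring forebrain regions were intermediate: the median percentiles were 60.1 for cortical layer genes, 50.6 for striatal genes and 47.7 for thalamic genes, with none in the top 10%. Of these genes, 10 of 11 cortical, 10 of 13 striatal and 7 of 9 thalamic ones reached 1 FPKM, against 63.8% of all genes, and the cortical median lay above that of the CA1 list. With loci summed that order turned, with a median of 9.57 FPKM for the CA1 list and 7.86 FPKM for the cortical list. Of 14 genes of monoamine and acetylcholine cell bodies, 5 reached 1 FPKM. Maob and Maoa, the monoamine oxidases that also occur in glia and other cells, led them at 33.2 ± 3.68 and 30.6 ± 4.25 FPKM. Chat followed, at 9.36, 11.9, 9.38 and 19.1 FPKM, and Fev, the serotonin neuron factor, was listed at 0.

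Receptor, Hox and defensin families were close to silent, and other families were mixed. Of 1139 olfactory receptor genes 1 reached 1 FPKM, against 63.8% of all genes, and 1091 were listed at 0. That gene, Olr1462, read 2.27, 4.31, 1.75 and 3.75 FPKM. None of 25 Hox genes reached 1 FPKM and 23 were listed at 0, and of 154 vomeronasal receptor genes 1 did. Of 41 defensins none reached 1 FPKM. Of 56 cytochrome P450 genes 15 did, and the highest was Cyp46a1, the neuronal cholesterol 24-hydroxylase, at 87.9 ± 23.8 FPKM, well above Cyp7b1 at 10.3 ± 2.55 FPKM. Of 35 keratins 4 reached 1 FPKM. Of 24 collagens 13 did, 54.2% against the 63.8% of all genes, and none was in the top 10%.

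Promoter composition differed along the abundance order. RefSeq promoters could be matched for 12073 genes. Median GC content of the 250 bases was 39.2% for 1963 genes listed at 0, 52.0% for genes above 0 and below 0.1 FPKM, 56.0% up to 1 FPKM and 59.6% up to 10 FPKM. It was 61.6% in both classes from 10 to 1000 FPKM. Over the same steps the share with a GC box rose from 8.30% to 64.8%, against 46.9% of all promoters. The share with TATAAA fell from 30.6% of genes listed at 0 to 5.40% of genes of 10 to 100 FPKM, against 11.3% of all promoters. The share with CCAAT, another common promoter motif, ran from 32.4% to 37.4% below 1000 FPKM. In the top class, with 19 promoters, 47.4% had a GC box and 10.5% had TATAAA. These shares describe sequence, with no test of the relation.

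**Figure D3:**
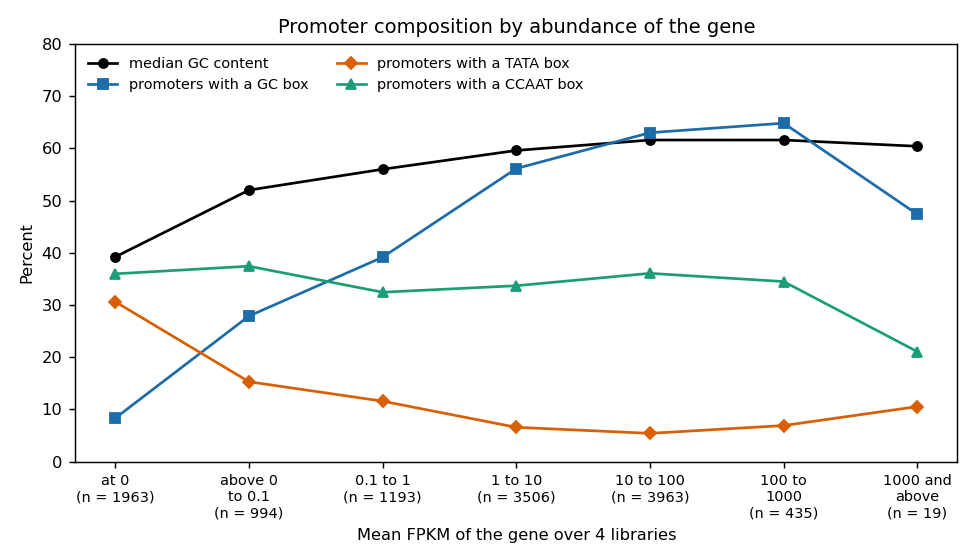
Median GC content (percent) and percent of promoters with each of 3 motifs on either strand, by mean FPKM class of the gene, with the number of promoters under each class. GC content and the GC box rise with abundance up to 1000 FPKM, TATAAA falls from 30.6% to 5.40%, and CCAAT changes little below 1000 FPKM.

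Olfactory receptors are a large part of the genes listed at 0. Their 958 matched promoters had a median GC content of 34.0%, and 37.1% held TATAAA. Without olfactory and vomeronasal receptors, the 923 remaining promoters of genes listed at 0 had 48.4% GC and 22.6% with TATAAA, so the gap to expressed genes narrowed and kept its direction. The window of Olr1006, listed at 0 in every library and picked because it has a TATA box, shows this composition beside the windows of the principal neuron genes above.
Olr1006 promoter, chr7:5849622-5849871, minus strand: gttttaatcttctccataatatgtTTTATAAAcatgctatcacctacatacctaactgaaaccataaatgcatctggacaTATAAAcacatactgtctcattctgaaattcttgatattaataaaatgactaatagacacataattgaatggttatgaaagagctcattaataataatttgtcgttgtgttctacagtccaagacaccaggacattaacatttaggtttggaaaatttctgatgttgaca
It has 30.0% GC, 3 TATA box matches counted over both strands and no GC box. In 20 matched promoters of presynaptic vesicle genes, by comparison, the median GC content was 67.0%, 80% had a GC box and none had TATAAA.

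Poly-A fragments were also listed at microRNA host loci. Of 351 genes named Mir, 32 reached 1 FPKM and 308 were listed at 0. Poly-A selected fragments at such a locus come from precursor or host transcripts, and mature microRNAs, the short strands that pair with target mRNAs through their seed, were not measured. Mature sequences of 5 of the 7 highest loci, chosen after their levels were seen, are printed to show which seeds they encode. They are from RefSeq on GRCr8, 5′ to 3′, with the seed, bases 2 to 8, in capitals.
rno-miR-770-5p of Mir770, chr6:134298094-134298115, plus strand: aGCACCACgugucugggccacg
rno-miR-9a-5p of Mir9-1, chr2:175974986-175975008, plus strand: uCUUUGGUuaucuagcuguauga
rno-miR-9a-3p of Mir9-1, chr2:175975025-175975046, plus strand: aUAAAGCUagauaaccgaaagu
rno-miR-190a-5p of Mir190, chr8:76732228-76732249, minus strand: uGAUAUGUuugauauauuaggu
rno-miR-22-3p of Mir22, chr10:60805387-60805408, plus strand: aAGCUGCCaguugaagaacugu
rno-miR-98-5p of Mir98, chrX:24460663-24460684, plus strand: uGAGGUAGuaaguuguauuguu
The locus named Mir770 read 345, 153, 184 and 139 FPKM, highest in replicate 1, and 26.5 to 41.6 FPKM at its next locus. Mir9-1, one of the loci of miR-9, a microRNA family of neural cells, read 182, 136, 148 and 109 FPKM. Mir9-2 encodes the same mature sequences, and hence the same seeds, and read 11.2 ± 1.82 FPKM. The Mir98 locus, whose seed is that of the let-7 family, had 18.1 ± 1.25 FPKM. Other non-coding genes were few: of 18 genes that RefSeq lists as lncRNA, 5 reached 1 FPKM, led by Snhg11, a small nucleolar RNA host gene of neurons, at 214, 96.8, 109 and 120 FPKM. Protein-coding genes held 98.5% of summed FPKM.

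Finally, libraries of the group were compared with each other. A gene was said to stand apart when 1 library lay at least 2-fold above or below each of the other 3 on the log2(FPKM + 1) scale, among the 10309 genes. In replicate 1, 66 genes (0.64%) were higher and 142 (1.38%) lower. In replicate 2, 4 (0.0388%) were higher and 48 (0.466%) lower. In replicate 3, 101 (0.98%) were higher and 2 (0.0194%) lower, and in replicate 4, 22 (0.213%) were higher and 7 (0.0679%) lower. The median difference of a library from the mean of the other 3 was between −0.04 and 0.03 on the log2 scale. With each library rescaled to the same sum, a scale on which 11194 genes reached 1, the counts were 94 and 156 in replicate 1, 5 and 72 in replicate 2, 179 and 7 in replicate 3, and 37 and 30 in replicate 4. The share of higher calls thus moved from 75.9% to 55.2% in replicate 4 and by less than 10 percentage points in the others.

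**Figure D4:**
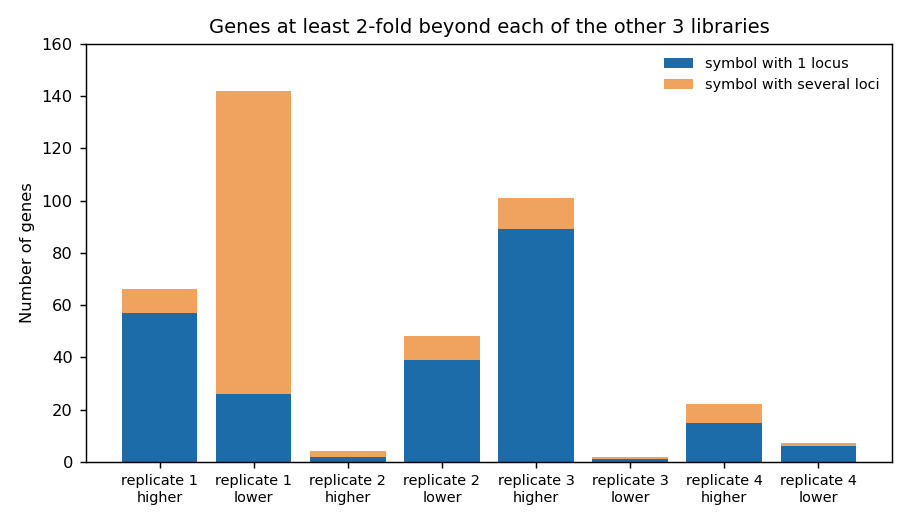
Number of genes (of 10309) at which 1 library lies at least 2-fold above or below each of the other 3 on the log2(FPKM + 1) scale, by library and direction, split by whether the symbol has 1 or several loci. Replicate 1 lower is the highest bar, with 116 of its 142 genes at symbols with several loci, and replicate 3 higher follows with 101.

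Replicate 2 was low in choroid plexus genes. Of the 10 listed genes that reached 1 FPKM, 9 stood apart as lower in replicate 2, against 0.466% of all genes. So did 3 of the 11 meningeal and fibroblast genes at 1 FPKM, whose list level was 1.72 in mean log2(FPKM + 1) in replicate 2 and 2.25 to 4.12 in the other libraries. These lists were chosen with earlier results of these data known, so the counts are descriptive. After Ttr, the highest was Enpp2, a lysophospholipid-producing enzyme gene, at 334, 92.5, 758 and 548 FPKM. Clic6, a chloride channel family gene, read 34.2, 1.76, 75.1 and 40.1 FPKM, and Kl, the co-receptor klotho, 25.8, 0.442, 45.5 and 33.4 FPKM. Sostdc1, a secreted BMP antagonist, read 12, 0.0260, 25.3 and 15.1 FPKM. The 3 genes showed the same order, lowest in replicate 2 and highest in replicate 3. F5, coagulation factor V, which is not on the list, read 17.3, 0.245, 24.9 and 24.5 FPKM. The number of the 11 listed genes at 1 FPKM or more was 10, 4, 10 and 10 in replicates 1 to 4, and Otx2, a defining transcription factor of this tissue, was listed at 0 in all. Whether choroid plexus carried with the dissection accounts for these levels was not tested.

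Replicate 3 was high in genes of meninges, fibroblasts and vessel walls. Of 13 meningeal and fibroblast genes 11 reached 1 FPKM, and 10 of these stood apart as higher in replicate 3, against 0.98% of all genes, and so did 3 of 9 mural cell genes and 2 of 11 endothelial genes. These lists too were chosen with earlier results of these data known. The endothelial list level was 4.19 in replicate 3 against 3.65 to 3.82. Replicate 3 held the highest value at 8 of 11 endothelial, 7 of 9 ependymal and 10 of 11 choroid plexus genes as well. The share of all genes highest in replicate 3 was not computed, and no ependymal gene stood apart there. Col1a1, a chain of type I collagen, read 3.95, 5.78, 71.9 and 7.43 FPKM. Tagln, an actin-binding gene of smooth muscle, read 25.7, 18.7, 161 and 15.3 FPKM. Aldh1a2, the retinoic acid synthesis enzyme of meninges, read 1.40, 1.74, 18.5 and 2.84 FPKM. In each, the other 3 libraries lay far below it. Acta2, smooth muscle actin, read 5.55, 90.4, 818 and 72.8 FPKM, with 26.6, 34.7, 301 and 42.1 FPKM at its other locus. Ccl19, a chemokine gene, Aebp1, a collagen-binding protein gene, and Bgn, a matrix proteoglycan gene, peaked in replicate 3 as well, at 17.0, 29.0 and 51.8 FPKM. Igf2, a growth factor gene of meninges and choroid plexus, read 55.5, 5.14, 134 and 31.9 FPKM, with 0, 1.85, 29.7 and 30.5 FPKM at its other locus. It was highest in replicate 3 and lowest in replicate 2 also with loci summed, while replicate 4, at 62.4 FPKM summed, then lay above replicate 1. Dcn, a matrix proteoglycan gene, was the exception in the meningeal list and was highest in replicate 4, at 54.2 FPKM, and Col1a2 was listed at 0 at both loci. Without replicate 3, the median percentile of the meningeal list was 41.9 in place of 55.6. The part of meningeal or vessel tissue in these differences was not tested.

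**Figure D5:**
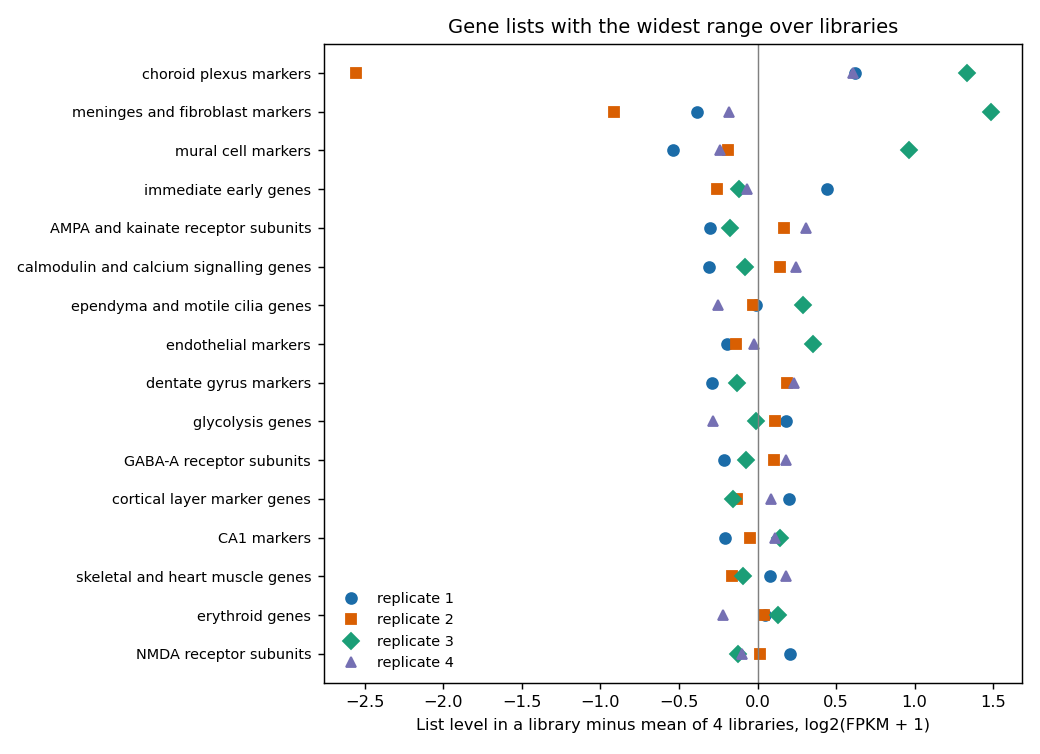
Level of a gene list in each library, the mean log2(FPKM + 1) over its genes, minus the mean over the 4 libraries, for the 16 of 36 lists with the widest range. Choroid plexus genes lie lowest in replicate 2, meningeal and mural genes highest in replicate 3, and immediate early genes highest in replicate 1.

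Replicate 1 was high in several immediate early genes. The level of 21 immediate early genes, which neurons induce on activity, was 4.51, 3.81, 3.95 and 4.0 in mean log2(FPKM + 1). With FPKM summed over loci, which changes 4 of the genes, it was 4.54, 3.90, 4.01 and 4.11, and replicate 1 held the highest value of 15 genes in place of 16. The share of all genes highest in replicate 1 was not computed. With loci summed, replicate 1 also held the highest value of 12 of 24 postsynaptic density and 12 of 15 glycolysis genes, and of 1 of 11 choroid plexus genes. Arc, which is transported to dendrites, was highest in replicate 4 once its loci were summed, at 30.5 FPKM against 26.8 FPKM in replicate 1, and Egr1, a zinc finger factor gene, then read 47.3 FPKM in replicate 1 and 43.7 FPKM in replicate 4. All 21 reached 1 FPKM and none was in the top 10%. Jund, an AP-1 subunit gene, read 94.1, 27.0, 27.4 and 21.7 FPKM, and together with Junb and Egr4 it stood apart as higher in replicate 1. That is 3 of 21 genes, against 0.64% of all genes. Nr4a1, an orphan nuclear receptor gene, was also highest in replicate 1, without standing apart, at 54.2, 31.6, 39.5 and 41.9 FPKM, and Homer1 was highest in replicate 4, at 48.6 FPKM. Outside the list, Cebpb, a transcription factor gene, read 30.3 FPKM in replicate 1 against 4.76 to 8.40 FPKM elsewhere, and Apc2, a microtubule and Wnt pathway gene of neurons, 29.8 against 5.18 to 6.57 FPKM. C1qtnf4, a secreted C1q and TNF related gene, was highest in replicate 1 too, at 197 against 46.0 to 56.1 FPKM. The Jund window is shown because 26.7% of 15 matched immediate early gene promoters held TGACGTCA, against 2.24% of all promoters.
Jund promoter, chr16:18769772-18770021, minus strand: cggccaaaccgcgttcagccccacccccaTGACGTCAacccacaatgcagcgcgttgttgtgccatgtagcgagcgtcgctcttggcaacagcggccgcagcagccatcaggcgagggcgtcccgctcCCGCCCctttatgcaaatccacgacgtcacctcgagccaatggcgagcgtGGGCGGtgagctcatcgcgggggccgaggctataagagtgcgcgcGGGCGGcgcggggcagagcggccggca
It holds 1 cyclic AMP response element and 3 GC boxes, with no TATAAA. The window of Junb, which stood apart as well, holds 1 TATAAA, no cyclic AMP response element and no GC box. Whether the element relates to the levels in replicate 1 was not tested.

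Genes low in replicate 1 were mostly those with several loci, 116 of 142, and with FPKM summed over loci 50 genes were lower there, of which 48 were among the 142. The 5 single-locus genes farthest below were Tomm22, a mitochondrial import receptor gene, at 0, 17.9, 34.6 and 82.2 FPKM, Chrm1, the main muscarinic receptor of pyramidal cells, at 0.325 against 20.7 to 30.0 FPKM, and Sssca1, Gpr39 and Syce2. Tomm70a, another import receptor gene, went the other way, at 26.6 FPKM in replicate 1 against 5.41 to 6.22 FPKM. Snrpn, a splicing factor gene of an imprinted locus, read 11, 130, 115 and 136 FPKM.

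In replicate 4, the farthest above the others were Slc39a12, a zinc transporter gene of astrocytes, at 35.8 against 3.69 to 4.52 FPKM, and Snhg4, at 55.9 against 11.8 to 12.2 FPKM. Ptma, which encodes prothymosin alpha, read 14.7, 20.9, 17.4 and 72.3 FPKM, and Actg1, gamma-actin, 15.4, 20, 9.42 and 54.9 FPKM. Both belong to families with near-identical copies and are uncertain. Htra3, Exoc8 and Bphl were lower in replicate 4, with Bphl at 16.4, 15.9, 5.38 and 1.94 FPKM.

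Against these, a number of genes barely moved. Among the 1201 single-locus genes averaging 50 FPKM or more, the steadiest was Rpl4, a ribosomal protein gene, at 128, 126, 125 and 125 FPKM. Sgk1, a kinase gene that glucocorticoids induce, read 71.1, 71.8, 73.0 and 71.4 FPKM. Pde2a, a cyclic nucleotide phosphodiesterase gene abundant in hippocampus, read 132, 135, 132 and 131 FPKM, and Ppp1r7 and Erh were as close. At the other extreme of the same genes, after Ttr, were Igfbp2, a growth factor binding protein gene of choroid plexus and meninges, at 110, 12.1, 281 and 50.7 FPKM, and Snrpn. Pcsk1n, which encodes a proprotein convertase inhibitor, read 156, 117, 26.3 and 23.9 FPKM, so that replicates 1 and 2 lay above replicates 3 and 4.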

How the data were processed

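The authors deposited FPKM values in a table for the tissue, with a status beside each value and, per the file headers, a locus and a gene symbol in every row. The submitters' processing notes name TopHat, TopHat2, Bowtie, Bowtie2, Cufflinks, Cuffdiff and build rn5; their roles and versions, the annotation and the use of strand are not given in the sources used here. Demultiplexing used CASAVA 1.8.2, per the labels' protocols.

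From the table, loci whose status was not OK throughout were left out (86 of 18087) and the locus with the highest mean was taken per symbol. Ranks, list levels and SDs were computed with Python 3.11.15, pandas 2.3.3 and numpy 2.4.6, on FPKM or log2(FPKM + 1), a scale that understates changes of low genes; the minimum mean was 1 FPKM. The computation was tested on simulated data. No test between groups was possible with 1 group. Of the symbols, 97.2% matched RefSeq (GRCr8), which gave biotypes, promoters and microRNA sequences; the 50 bases of each promoter entry after the gene start were left out. The precision of low values is unknown, since FPKM holds no counts.

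Named genes were the 25 highest, the 4 markers, the 3 highest and any member listed at 0 of each list, the 3 highest of each family, the 5 single-locus genes farthest apart per library and direction (mean of at least 5 FPKM) and the 5 steadiest and 5 most variable (mean of at least 50 FPKM). Prox1, Lct, Tdo2, Gad1, Pvalb, Dcx, Mki67, Top2a, Gria2, Bdnf, the Elovl genes, Arc, Egr1, Gapdh, Tpi1, Eno2, Junb, Egr4, Olr1006, Snhg11, Mir9-2, Mir22 and Mir98 were named after their values were seen. Some genes the rule selects are not reported here. List levels with loci summed were added after seeing the data. Members and lists were chosen with earlier results of these data known.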

Additional observations from a re-analysis of the deposited data

Results flagged for a closer look

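In 23 of 277 results measured in the 4 libraries, 1 library lay so far from its nearest neighbour that the gap, divided by the whole range, exceeded Dixon's critical value. Chance gives about 1 in 20 such results, here 13.9, and genes and lists are not independent. Genes chosen for standing apart or for a large SD were not examined.

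Replicate 1 was the distant library in 14 of the 23. It was highest in the share of FPKM of oxidative phosphorylation subunits (ratio 0.878), at 3.54% against 2.91% to 2.99%, and lowest in the share of regulators of G protein signalling (0.892) and in the median FPKM of genes averaging 1 FPKM or more (0.945), at 11.5 against 12 FPKM in each of the others. It was highest at Pcp4 (0.85), with 67.8 FPKM against 23.6 to 30.2 FPKM, and at the neuronal genes Cck (0.933), Nrgn (0.92) and Ddn (0.837). It was also highest at Hist3h2ba (0.851), a histone gene, with 16.1 against 3.95 to 5.76 FPKM, at RT1-A1 (0.936), one of the histocompatibility genes, which have near-identical copies, and at Defb14 (1.0). At its next locus RT1-A1 was lowest in replicate 1, at 0.542 FPKM against 11.6 to 18.2 FPKM, while with loci summed replicate 1 was highest, at 50.5 against 18.9 to 24.3 FPKM. Defb14 and Ugt2b10 were each listed at 0 in the other 3 libraries, so that their ratio of 1.0 is fixed by construction and carries no weight. It was lowest at Cplx1 (0.84) and Nnat (0.836), each with another locus, at the ribosomal protein gene Rpl23 (0.931), with 133 against 456 to 479 FPKM, and at Serpina1 (0.848), with 0.434 FPKM against 0.845 to 0.918 FPKM.

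Replicate 3 was highest at Acta2 (0.896) and Bgn (0.858), whose values are in the report, and lowest at Bcas1 (0.906), with 86.6 against 118 to 121 FPKM, and at Pnlip (0.903). Replicate 4 was highest at Calb1 (0.953), Homer1 (0.859) and Ugt2b10 (1.0), and lowest at S100b (0.834). Replicate 2 was lowest at Olr59 (0.833), an olfactory receptor gene below 1 FPKM in every library.

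Of the 23, 6 are genes with several loci. With loci summed, a choice made after seeing the data, 2 of these, Acta2 and Hist3h2ba, stayed above the critical value. Calb1 (0.502), Nnat (0.459), Cplx1 (0.815) and RT1-A1 (0.827) fell below it, with the same library farthest out.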

How the results depend on the processing

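No paired analysis was possible because the results come from no test and from 1 group. The number of genes of at least 1 FPKM (10229 to 10346 with 1 library left out), the share of the 100 highest genes and the share of ribosomal proteins moved by less than the spread between libraries, or, for the count, by less than 1.5 times, under every alternative tried. The median SD of log2(FPKM + 1) was 0.16 with a pseudocount of 5 and 0.16 with no minimum mean, and 0.18 to 0.25 with 1 library left out. With single-locus symbols only, the share of oxidative phosphorylation was 3.58% and that of the proton pump 0.940%. The median percentile of pyramidal and granule cell markers was 98.2 with loci summed, 97.6 with single-locus symbols, 97.4 among symbols above 0 and 97.8 to 98.0 with 1 library left out.

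With a pseudocount of 5, 37 genes stood apart as higher in replicate 1, 1 higher and 18 lower in replicate 2, 42 higher and 0 lower in replicate 3, and 0 lower in replicate 4. With a pseudocount of 0.1, 77 were lower in replicate 2, 8 lower in replicate 3 and 41 lower in replicate 4. With a mean of at least 5 FPKM, 1 was higher and 28 lower in replicate 2, and 47 higher and 1 lower in replicate 3. With single-locus symbols, 26 were lower in replicate 1, 2 higher in replicate 2 and 1 lower in replicate 3, and with loci summed 50 were lower in replicate 1 and 1 lower in replicate 3. With libraries rescaled to the same sum, on which 11194 genes reached the minimum, 179 were higher and 7 lower in replicate 3, and 37 higher and 30 lower in replicate 4. With 1 of the other libraries left out, the counts ran from 80 to 129 higher (129 without replicate 3) and 153 to 167 lower in replicate 1, and from 8 to 14 higher and 49 to 77 lower (77 without replicate 4) in replicate 2. They ran from 118 to 155 higher (155 without replicate 1) and 8 to 13 lower in replicate 3, and from 26 to 86 higher (86 without replicate 2) and 17 to 43 lower (43 without replicate 2) in replicate 4. Fewer libraries to be exceeded raise such a count by construction; the cause of the other changes was not tested. For lists and families not covered above, 447 values moved by less than the spread between libraries and 93 by more. Low values have unknown precision, since the depth is not known.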
